A study of Mus musculus with 10 samples.

Results

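The nitric oxide and natriuretic peptide pathway to cyclic GMP was described through 10 genes in libraries from mouse aorta labelled Ovgp1 knockout (KO) or wild type (WT). The genes were chosen by name, not by their values: the nitric oxide synthases Nos1 and Nos3, the soluble guanylate cyclase subunits Gucy1a1 and Gucy1b1 (listed in the files under the older symbols Gucy1a3 and Gucy1b3), the kinase gene Prkg1, the phosphodiesterases Pde3a and Pde5a, and the natriuretic peptide receptors Npr1, Npr2 and Npr3. All 10 were among the 35667 genes of the count files, and 9 had enough counts to be tested; Nos1 did not. Gene expression was measured by RNA sequencing of whole aorta, the main artery leaving the heart, from C57BL/6 mice aged 12 weeks. There were 5 libraries labelled KO for Ovgp1, which encodes oviductal glycoprotein 1, and 5 labelled WT, with no treatment named for either group. The labels do not say how the Ovgp1 allele was made, whether it acts in all cells, or whether each library came from an animal of its own.

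Cyclic GMP is a second messenger that relaxes vascular smooth muscle. Nitric oxide made by the endothelial synthase crosses into smooth muscle cells and activates the soluble guanylate cyclase, an enzyme of 1 alpha and 1 beta subunit, while natriuretic peptides act through receptors that carry a guanylate cyclase in their own intracellular part. The cyclic GMP activates a protein kinase that lowers cytosolic calcium and calcium sensitivity, and phosphodiesterases end the signal.

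Several facts of the whole series limit what the members can show. All KO titles name Ovgp1, yet under genotype the labels have Ovgp1 for KO replicate 1 alone and Ovgp2 to Ovgp5 for the other four. Ovgp1 itself went against the label: it was at 17.8 to 21.9 counts-per-million units (CPM, scaled by TMM throughout) in the libraries labelled KO, against 1.98 to 4.69 CPM in WT libraries, a log2 difference of 2.40 (SE 0.18, adjusted p = 2.84e-05, edgeR quasi-likelihood test; 0.217 with KO as 1 sample). A transcript with a deleted part can still be counted, and counts per gene do not show such a part. Neither the reason for the higher level nor whether the labels match the libraries was tested, and every direction below follows the labels. Total counts ran from 24434745 to 26694590 in libraries labelled KO and from 21242030 to 24396394 in WT libraries. The libraries labelled KO nearly repeated each other: a chi-square of paired libraries over 12509 well-covered genes, divided by its degrees of freedom so that pure counting error gives 1, came to 1.77 to 3.25 in KO and 11.03 to 154 in WT. Within groups, the biological coefficient of variation was 2.82% (KO) and 21.2% (WT). P-values therefore measure the spread between these libraries, which may be technical in KO, and the tested members and the counts of calls are also given with the KO counts summed into 1 sample, where the spread comes from WT alone. Mitochondrial genes took 7.61 to 7.88% of counts in KO, and more in WT replicates 1 and 3, with 16.2% and 13.2%, while the remaining WT libraries had 6.75 to 9.59%.

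Among the members, Pde5a, the phosphodiesterase that is selective for cyclic GMP, was lower in the libraries labelled KO, at 0.78 times the WT level. No other tested member passed the threshold in either direction. Differences of the other tested members ran from −0.88 (Nos3) to 0.38 (Prkg1) on the log2 scale, with Gucy1a1 within 0.04 of 0. The call of Pde5a was lost when the KO libraries counted as 1 sample, and no member was called there.

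The test was edgeR's quasi-likelihood F test across 15710 genes, with p-values adjusted over all of them by Benjamini-Hochberg and a threshold of 0.05. It called 1 of the 9 tested members, 0 higher and 1 lower, against a background of 14.3% of all tested genes, 6.84% higher and 7.43% lower. At an unadjusted p under 0.05, 4 of the 9 passed (Gucy1b1, Prkg1, Pde3a and Pde5a), against 29.5% of all tested genes. DESeq2 called Pde5a, Gucy1b1 and Nos1, and 14.1% of all genes it tested. The median log2 difference of the 9 was −0.11, beside −0.02 over all tested genes. With KO as 1 sample, 0 of the 9 were called and 0 reached an unadjusted p under 0.05, where 0.0446% of all genes were called and 3.72% had such a p. In 1 of the 9, Pde5a, the libraries of the 2 groups did not overlap, against 14.6% of all tested genes. In whole tissue, fewer cells of a type and less RNA per cell cannot be told apart in any of these values.

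**Figure D1:**
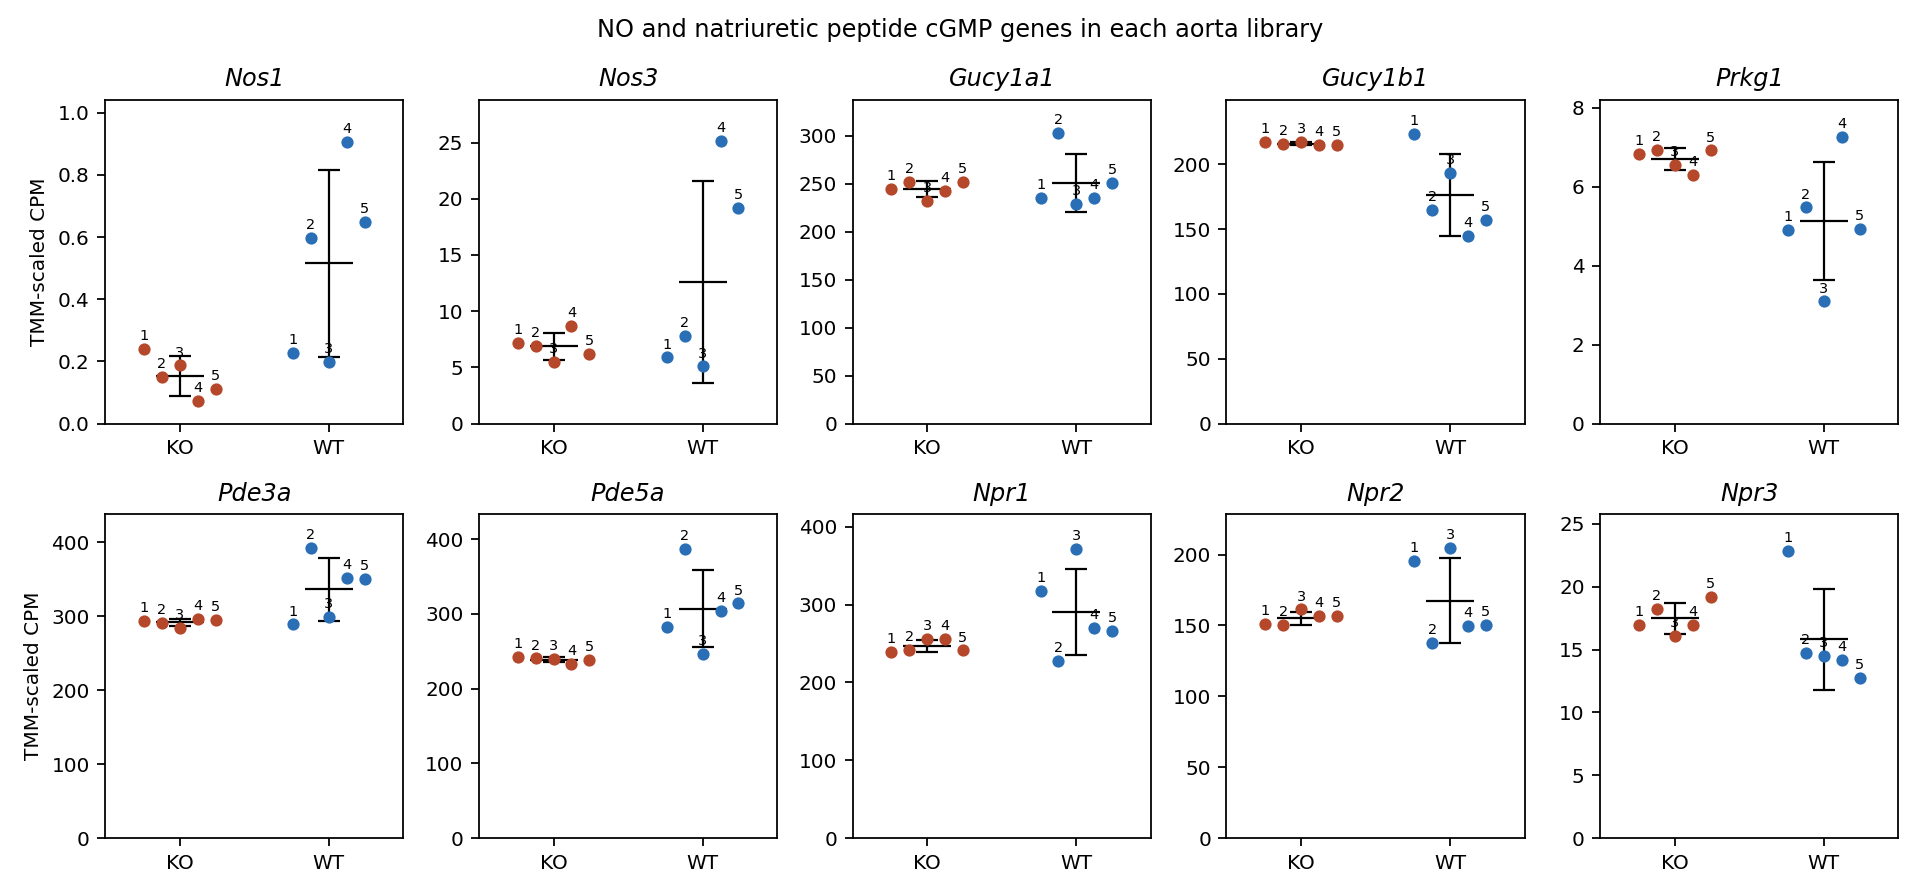
Level of each of the 10 genes in every library, in TMM-scaled CPM, with KO libraries left of WT libraries in each panel; points are libraries numbered by replicate, horizontal lines are group means and bars are the SD of 5 libraries. The KO points lie close together, the WT points are spread, and the Pde5a panel alone has no overlap between the groups.

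Levels of different genes are set side by side per kilobase of exon. In KO libraries the order of mean CPM per kilobase was Gucy1b1 at 55.0, Npr1 at 51.6, Gucy1a1 at 35.1, Npr2 at 33.3, Pde5a at 24.3, Pde3a at 22.9, Npr3 at 1.86, Nos3 at 1.67, Prkg1 at 0.617 and Nos1 at 0.0137. In WT libraries it was Npr1 at 60.8, Gucy1b1 at 44.95, Gucy1a1 at 36.0, Npr2 at 35.9, Pde5a at 31.2, Pde3a at 26.4, Nos3 at 3.05, Npr3 at 1.68, Prkg1 at 0.472 and Nos1 at 0.0463. Both orders thus have 6 genes at high levels, then a wide step down to Npr3, Nos3 and Prkg1, and Nos1 near 0. Some neighbours in these orders were not separated in every library: Gucy1a1 was above Npr2 in 4 of 5 KO and 3 of 5 WT libraries, and in 4 of 5 WT libraries Gucy1b1 was above Gucy1a1 and Npr2 above Pde5a. Npr3 was above Nos3 in 4 of 5 KO libraries, and Nos3 above Npr3 in 3 of 5 WT libraries. Npr1 exceeded Gucy1b1 in 5 of 5 WT libraries, and Gucy1b1 exceeded Npr1 in 5 of 5 KO libraries. The kinase gene Prkg1 is a main effector in smooth muscle but was counted at a low level here; whether all of its exons were counted was not tested.

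Nos3, the endothelial nitric oxide synthase (ENSMUSG00000028978, chromosome 5, 24364810 to 24384474, GRCm38), had 7.18, 6.88, 5.47, 8.70 and 6.18 CPM in KO replicates 1 to 5, against 5.89, 7.83, 5.09, 25.1 and 19.2 CPM in WT replicates 1 to 5. All KO libraries lay within the WT range, and WT replicates 4 and 5 stood above every other library. Nos3 differed by a log2 value of −0.88 (SE 0.42, adjusted p = 0.197, edgeR), with a 95% interval for the fold of 0.284 to 1.04, and of 0.121 to 2.45 with KO as 1 sample. Without WT replicate 4 it was −0.46 (adjusted p = 0.434), and without WT replicates 4 and 5 it was 0.13, in the opposite direction; without WT replicates 1 and 3 it was −1.32 (adjusted p = 0.0236). Antisense and neighbouring genes, Gm15587 and Atg9b, share 32.3% of the exonic bases of Nos3, so part of its count could belong to them. Their own counts per library were 0 to 17 (Gm15587) and 2 to 21 (Atg9b), against 102 to 610 for Nos3. Shared reads were not separated, and whether reads in the shared bases were left out of the Nos3 count was not tested. Endothelial markers varied too: the summed level of 10 of them was 386 to 403 CPM in KO, against 284, 644, 227, 795 and 668 CPM in WT replicates 1 to 5. Their sum was high in WT replicates 4 and 5, as Nos3 was, but also in WT replicate 2, where Nos3 was not. Per 100 CPM of those markers, Nos3 was at 1.85, 1.77, 1.40, 2.16 and 1.60 CPM in KO, against 2.07, 1.21, 2.25, 3.16 and 2.87 CPM in WT. On that scale WT replicates 4 and 5 were again highest, and the groups overlapped. The sum holds much Pecam1, at 405 CPM in WT replicate 2 and 366 CPM in WT replicate 4. Single markers went both ways in WT replicate 2. Pecam1, Vwf, Erg and Egfl7 were above every KO library there. Cdh5, Tie1, Kdr and Emcn were below every KO library, and Tek and Cldn5 were within the KO range. Taken per single marker, Nos3 was highest in WT replicates 4 and 5 for 5 of the 10 markers; per Cdh5, the endothelial cadherin gene, it was highest in WT replicate 3. The summed level of adipocyte markers was also highest in WT replicates 4 and 5, at 2230 and 1663 CPM. It was 385 to 766 CPM in WT replicates 1 to 3 and 717 to 748 CPM in KO. Much of that sum was Fabp4, at 1371 CPM in WT replicate 4. Lep differed from the sum and was highest in WT replicate 2, at 8.13 CPM. The part of either cell type in the Nos3 values was not tested.

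Nos1, the neuronal synthase (ENSMUSG00000029361, chromosome 5, 117781032 to 117958840), had 6, 4, 5, 2 and 3 counts in KO libraries, against 5, 14, 4, 22 and 14 counts in WT libraries. The sums were 20 counts in KO (95% Poisson interval 12.2 to 30.9) and 59 in WT (44.9 to 76.1); such intervals cover counting error only. WT replicates 2, 4 and 5 held most of these counts, while WT replicates 1 and 3 were within the KO range. Nos1 had too few counts for the filter. Without that filter its log2 difference was −1.71 (SE 0.49, adjusted p = 0.0257, edgeR), where 5.52% of genes were called, and DESeq2 gave −1.77 (adjusted p = 0.0207), where 14.1% were. Markers of neurons summed to 131 to 139 CPM in KO, against 158, 141, 123, 93.8 and 110 CPM in WT replicates 1 to 5, most of it Uchl1. Single markers differed from that sum: Stmn2, like Nos1, was highest in WT replicate 4 (6.83 CPM), while Th and Dbh, of catecholamine synthesis, were higher in every KO library than in any WT library. The part of neurons in the Nos1 values was not tested.

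Gucy1a1 and Gucy1b1 encode the alpha and beta subunits that form the nitric oxide receptor, and they are neighbours on the minus strand of chromosome 3 of GRCm38, with 17737 bases between Gucy1b1 (82032006 to 82074689) and Gucy1a1 (82092427 to 82145789). Their promoter windows are shown because these genes encode the subunits of 1 enzyme and lie side by side. Each runs from 250 bases before to 50 bases after a RefSeq start (GRCm38.p6), written 5′ to 3′ on the gene's strand, at chr3:82074662-82074961 for Gucy1b1 and chr3:82145601-82145900 for Gucy1a1, whose second RefSeq start is not shown. Capitals mark GC boxes (GGGCGG or CCGCCC) and CCAAT boxes (CCAAT or ATTGG), searched on both strands; no matches overlapped.
Gucy1b1: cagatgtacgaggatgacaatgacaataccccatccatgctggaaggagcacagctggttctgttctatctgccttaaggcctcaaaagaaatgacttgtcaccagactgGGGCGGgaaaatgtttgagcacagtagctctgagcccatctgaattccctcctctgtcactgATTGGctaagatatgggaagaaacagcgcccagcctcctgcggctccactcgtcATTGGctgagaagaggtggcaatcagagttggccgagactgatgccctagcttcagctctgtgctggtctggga
Gucy1a1: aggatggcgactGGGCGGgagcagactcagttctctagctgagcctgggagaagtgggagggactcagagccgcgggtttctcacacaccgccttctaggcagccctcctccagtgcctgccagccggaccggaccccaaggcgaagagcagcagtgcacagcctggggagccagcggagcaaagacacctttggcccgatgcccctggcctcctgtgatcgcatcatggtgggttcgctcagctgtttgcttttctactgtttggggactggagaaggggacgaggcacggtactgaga
Gucy1b1 held 1 GC box and 2 CCAAT boxes, and Gucy1a1 held 1 GC box and no CCAAT box. Among all 32851 RefSeq promoter windows of that length, 35.7% held a GC box and 37.4% a CCAAT box. The bases G and C made up 52.3% of the Gucy1b1 window and 62.3% of the Gucy1a1 window, against a median of 52.7% over all windows. These matches are descriptions of letters in a window.

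Gucy1b1 was at 217, 216, 217, 215 and 215 CPM in KO libraries, against 223, 165, 193, 144 and 157 CPM in WT libraries. KO libraries lay above WT replicates 2 to 5 and below WT replicate 1. Gucy1b1 differed by a log2 value of 0.29 (SE 0.10, adjusted p = 0.0746, edgeR), with a fold interval of 1.05 to 1.42, and of 0.847 to 1.77 with KO as 1 sample. Without WT replicate 1 the difference was 0.40 (adjusted p = 0.00782), and without WT replicates 4 and 5 it was 0.16 (0.214). Gucy1a1 was at 244.5, 252.3, 232, 242 and 252.1 CPM in KO libraries, against 235, 303, 229, 235 and 251 CPM in WT libraries. KO values fell inside the WT range, in which WT replicate 2 was highest. The log2 difference of Gucy1a1 was −0.04 (SE 0.07, adjusted p = 0.796), with a fold interval of 0.871 to 1.09, and of 0.732 to 1.30 with KO as 1 sample. It was at or above 0 with upper quartile factors (0.00056) and library totals (0.037), and −0.027 with the size factors of DESeq2.

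The log2 ratio of Gucy1a1 to Gucy1b1 per kilobase, which needs no size factor, was −0.66, −0.60, −0.73, −0.66 and −0.60 in KO libraries, against −0.75, 0.05, −0.58, −0.12 and −0.15 in WT libraries. Every KO library and WT replicates 1 and 3 had clearly more of the beta subunit, and WT replicates 2, 4 and 5 had the subunits at closer levels. KO libraries averaged −0.65 ± 0.06 and WT libraries −0.31 ± 0.34 (SD, n = 5 each). The difference was −0.34, which did not separate from 0 in an exact permutation test, two-sided, of every split (p = 0.111, smallest possible 0.00794). WT replicates 1 and 3 are also those with the highest mitochondrial shares. Without them the difference was −0.57 (exact permutation p = 0.0179), and the part of RNA quality in it was not tested. With WT replicate 1 alone left out it was −0.45 (exact permutation p = 0.00794). Both of these p-values are the smallest that so few libraries allow. WT replicate 1 was the only WT library not above every KO library. Both fits leave it out, so the groups no longer overlapped and each p could only be the smallest. In the other direction, the difference was −0.25 without WT replicate 2 (exact permutation p = 0.167). It was −0.22 without WT replicates 4 and 5 (exact permutation p = 0.286). All these permutations treat the KO libraries as separate samples, although they nearly repeat each other. With KO as 1 sample the difference was −0.34, and no p-value was taken.

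**Figure D2:**
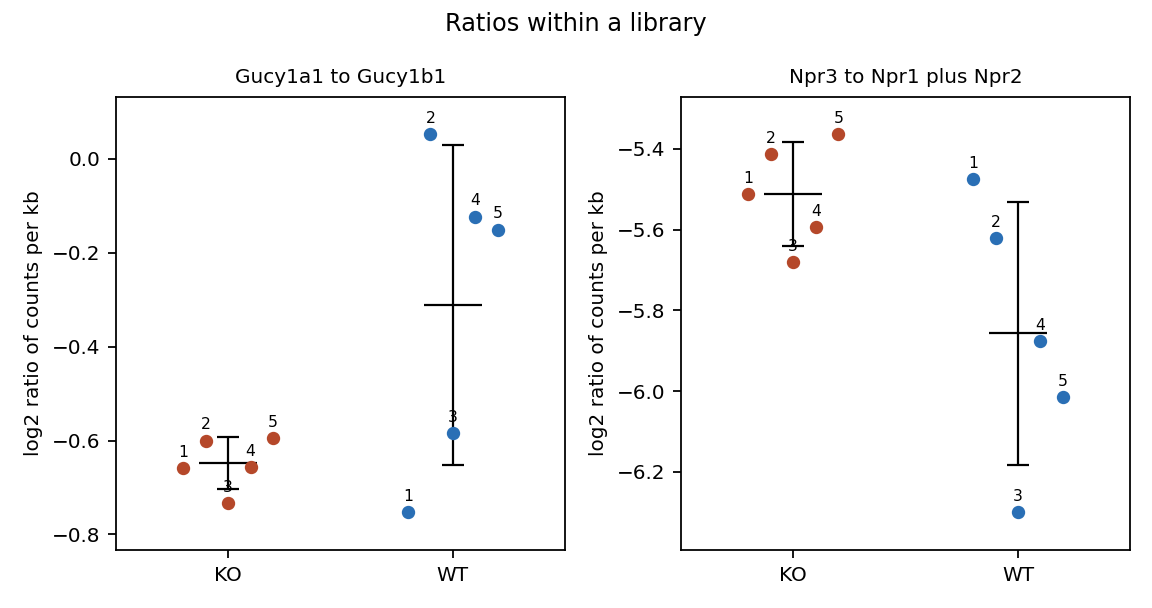
Log2 ratio per kilobase in each library of Gucy1a1 to Gucy1b1 (left) and of Npr3 to the sum of Npr1 and Npr2 (right), KO left of WT; points are libraries numbered by replicate, horizontal lines are means and bars are the SD of 5 libraries. KO libraries average −0.65 and WT libraries −0.31 on the left, and −5.51 and −5.86 on the right, with overlap in both.

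Npr1 encodes the receptor of atrial and B-type natriuretic peptide, and Npr2 that of C-type natriuretic peptide; both carry the guanylate cyclase. Npr1 (chromosome 3, 90450591 to 90465866) was at 239, 242, 255, 256 and 241 CPM in KO libraries, against 318, 228, 371, 270.0 and 267 CPM in WT libraries. Only WT replicate 2 was below the KO libraries, and WT replicates 1 and 3 were far above them. The log2 difference was −0.24 (SE 0.11, adjusted p = 0.172, edgeR), with a fold interval of 0.720 to 1.00, and of 0.564 to 1.28 with KO as 1 sample. Without WT replicate 2 it was −0.30 (adjusted p = 0.0468), without WT replicate 3 −0.13 (0.298), and without WT replicates 1 and 3 −0.03 (0.727). Gm16048, an antisense gene, shares 11.7% of the exonic bases of Npr1. Its own counts per library were 3 to 11, against 5322 to 7442 for Npr1.

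Npr2 (chromosome 4, 43631935 to 43651244) was at 151, 150.3, 161, 157 and 157 CPM in KO libraries, against 195, 138, 204, 150.0 and 150.1 CPM in WT libraries. WT replicates 1 and 3 were again the highest and WT replicate 2 the lowest, so the groups overlapped. The log2 difference was −0.11 (SE 0.10, adjusted p = 0.520, edgeR), with a fold interval of 0.793 to 1.08. With KO as 1 sample the interval was 0.633 to 1.36. The difference was −0.04 without WT replicate 1 and −0.03 without WT replicate 3, and turned to 0.10 without both. The summed level of 8 smooth muscle markers, mostly Acta2 and Myh11, was likewise highest in WT replicates 1 and 3, at 37300 to 37942 CPM in KO, against 41067, 32999, 41094, 27158 and 30084 CPM in WT replicates 1 to 5. Not all of them shared this order: Cnn1 and Lmod1 were highest in WT replicate 2, and Des in KO libraries. The part of smooth muscle in the receptor values was not tested.

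Npr3 encodes the clearance receptor, which binds natriuretic peptides and takes them into the cell and has no guanylate cyclase. It (chromosome 15, 11839896 to 11907287) was at 16.9, 18.2, 16.1, 16.9 and 19.2 CPM in KO libraries, against 22.9, 14.7, 14.5, 14.2 and 12.8 CPM in WT libraries. KO libraries lay above 4 WT libraries and below WT replicate 1. The log2 difference was 0.15 (SE 0.14, adjusted p = 0.529, edgeR), with a fold interval of 0.896 to 1.37, and of 0.683 to 1.79 with KO as 1 sample. Without WT replicate 1 it was 0.33 (adjusted p = 0.0179), without WT replicate 5 0.08 (0.766), and without WT replicates 4 and 5 0.01 (0.976). Per kilobase, Npr3 amounted to 1.95 to 2.43% of Npr1 plus Npr2 in KO, against 1.27 to 2.25% in WT. The log2 ratio behind these shares averaged −5.51 ± 0.13 in KO and −5.86 ± 0.33 in WT (SD, n = 5 each). The difference of 0.34 had an exact permutation p of 0.0635, which was 0.0159 without WT replicate 1, 0.0476 without WT replicate 2 and 0.119 without WT replicate 3 (difference 0.23). With KO as 1 sample the difference was 0.35, and these permutations too treat the KO libraries as separate samples. By the shares above, the clearance receptor was a small part of the receptor RNA in every library.

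Prkg1, the gene of the cyclic GMP-dependent protein kinase I (ENSMUSG00000052920, chromosome 19, 30564489 to 31765033), was at 6.82, 6.92, 6.55, 6.29 and 6.92 CPM in KO libraries, against 4.89, 5.47, 3.09, 7.25 and 4.92 CPM in WT libraries. WT replicate 4 was the highest of all, and the other WT libraries were below KO. Prkg1 differed by a log2 value of 0.38 (SE 0.17, adjusted p = 0.170, edgeR), with a fold interval of 1.00 to 1.70, and of 0.704 to 2.41 with KO as 1 sample. Without WT replicate 4 it was 0.54 (adjusted p = 0.0320), without WT replicate 3 0.25 (0.212), and without WT replicates 1 and 3 0.20 (0.264).

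**Figure D3:**
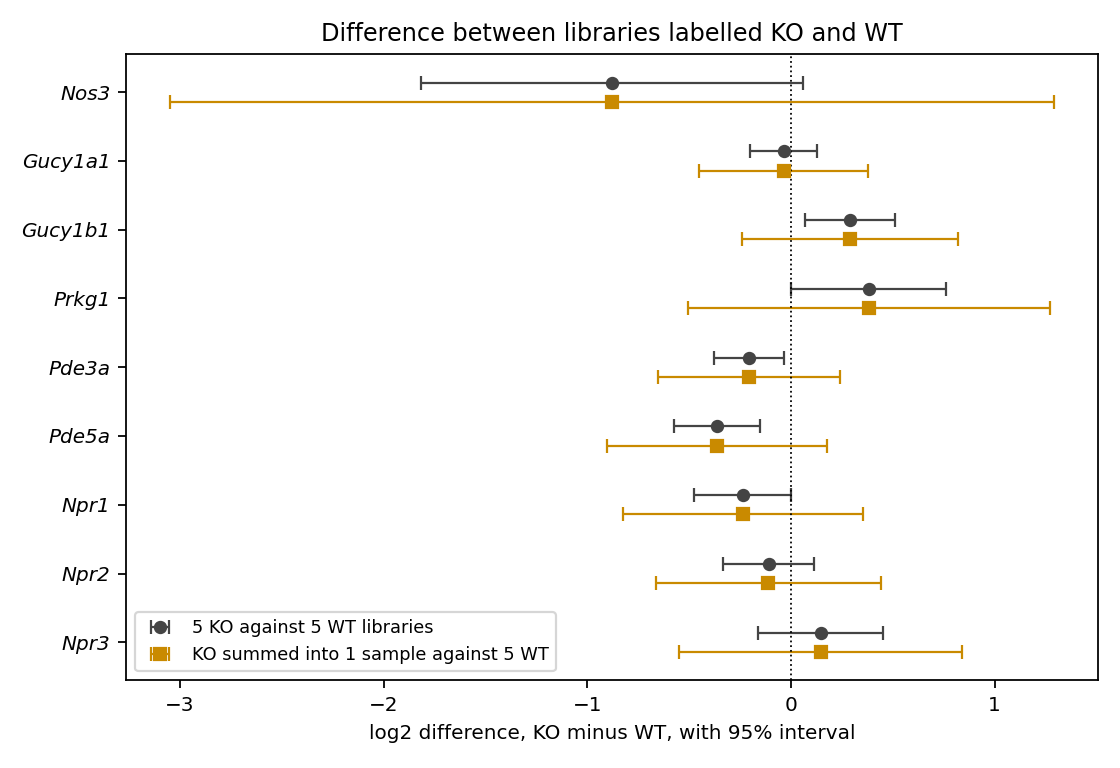
Log2 difference, KO over WT, of the 9 tested genes with 95% intervals, from the comparison of 5 with 5 libraries and from that with KO as 1 summed sample. With KO as 1 sample, all 9 intervals include 0. With 5 against 5, those of Gucy1b1, Pde3a and Pde5a do not, and that of Prkg1 only just does not. These intervals are not adjusted for the number of genes. The interval of Pde5a, the member called, runs from 0.673 to 0.901 on the fold scale.

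Pde5a encodes the phosphodiesterase that sildenafil inhibits. It (ENSMUSG00000053965, chromosome 3, 122728947 to 122859374, plus strand) was at 242, 240.3, 239, 233 and 239 CPM in KO libraries, against 283, 386, 247, 303 and 314 CPM in WT libraries. Every KO library was below every WT library, by a narrow margin to WT replicate 3. Pde5a differed by a log2 value of −0.36 (SE 0.10, adjusted p = 0.0281, edgeR), with a fold interval of 0.673 to 0.901, and of 0.535 to 1.13 with KO as 1 sample (adjusted p = 0.999). The adjusted p was above the threshold without any 1 of the 5 KO libraries (0.0647 to 0.0719) and without WT replicate 5 (0.0583), at nearly the same difference. Scaling by library totals alone gave −0.29 (adjusted p = 0.118). Its promoter window, shown because this was the member called, is at chr3:122728908-122729207 (RefSeq, GRCm38.p6, plus strand), with its 1 GC box in capitals and no CCAAT box.
Pde5a: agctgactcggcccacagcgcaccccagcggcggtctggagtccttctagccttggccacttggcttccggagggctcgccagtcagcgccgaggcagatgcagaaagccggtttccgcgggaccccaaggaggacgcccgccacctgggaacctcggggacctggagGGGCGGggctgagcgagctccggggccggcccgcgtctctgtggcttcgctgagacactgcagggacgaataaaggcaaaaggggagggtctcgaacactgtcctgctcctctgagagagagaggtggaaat
Pde3a encodes a phosphodiesterase that cleaves mainly cyclic AMP and is inhibited by cyclic GMP. It (chromosome 6, 141249269 to 141507448) was at 294, 291, 283, 296 and 294 CPM in KO libraries, against 289, 393, 299, 352 and 350.2 CPM in WT libraries. WT replicate 1 was inside the KO range and the other WT libraries were above it. Pde3a differed by a log2 value of −0.21 (SE 0.08, adjusted p = 0.100, edgeR), with a fold interval of 0.770 to 0.975, and of 0.636 to 1.18 with KO as 1 sample. It passed without WT replicate 1 (adjusted p = 0.0414) or WT replicate 3 (0.0483), and was −0.13 (0.153) without WT replicate 2.

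**Figure D4:**
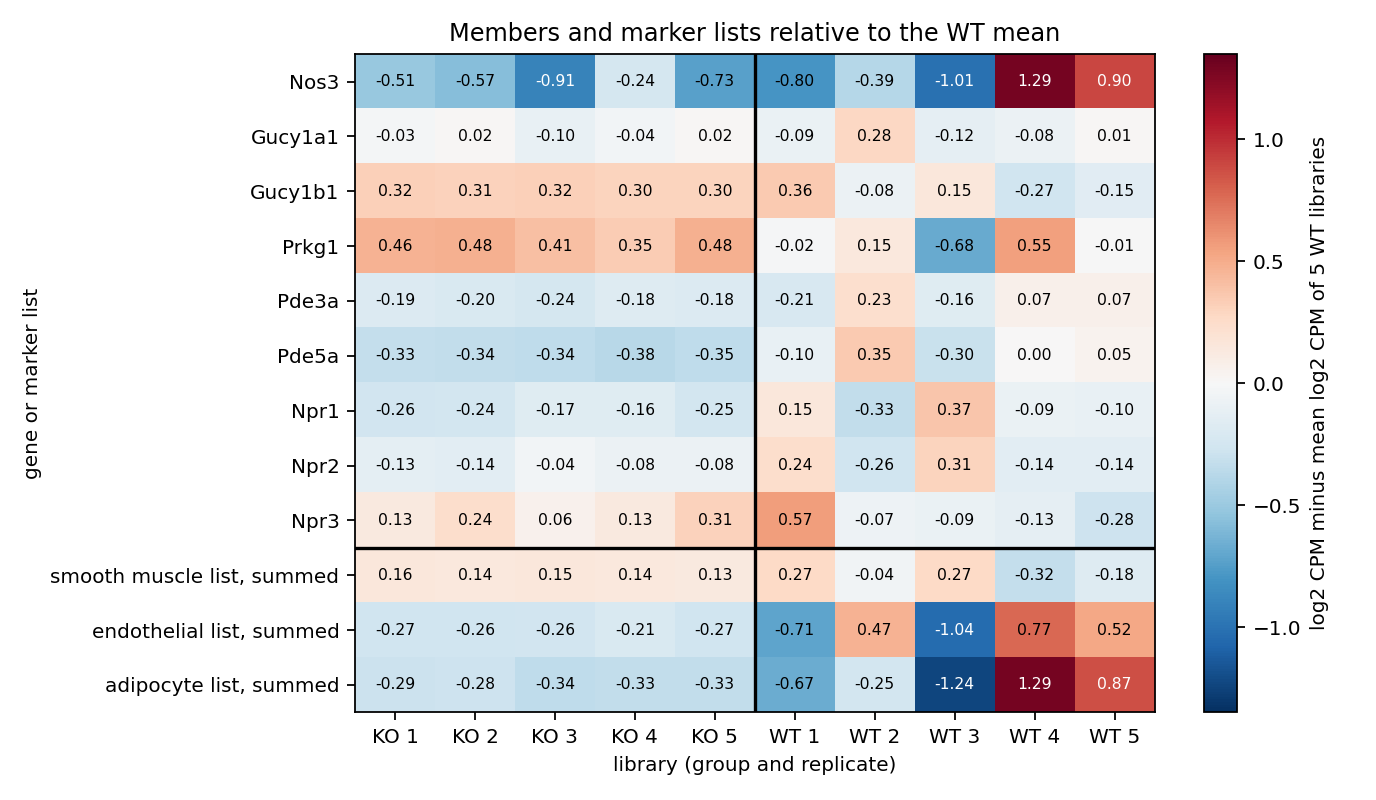
Log2 deviation of each tested gene and of 3 marker lists from its WT mean, in every library, KO columns left of WT columns; colour and printed number give the deviation. Nos3 and the adipocyte and endothelial lists are high in WT replicates 4 and 5, and Npr1 and Npr2 in WT replicates 1 and 3. In WT replicate 2 the endothelial list is also high (0.47), where Nos3 is not (−0.39). The list sum is mostly Pecam1 in WT replicate 2, and the other markers go both ways there.

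Likeness between genes was measured over all 10 libraries. Among the members, the mean absolute distance of centred log2 CPM was smallest for Npr1 with Npr2 (0.0691), then Pde3a with Pde5a (0.0869), Gucy1a1 with Pde3a (0.0927) and Gucy1b1 with Npr3 (0.129). The first of these pairs are the receptors that carry a cyclase and the next the phosphodiesterases, but Gucy1a1 with Pde3a was nearly as close. Genes that vary little lie close on this measure, and no background of other pairs was taken. The same measure over 11660 protein-coding genes placed Orm1 (0.126), Plin2 (0.145) and Pank1 (0.175) nearest to Nos3. Plin2 encodes a coat protein of lipid droplets. Nearest to Prkg1 were Ptgs1 (0.0889), Cd274 (0.0894) and Clec14a (0.0928), and nearest to Npr3 were Hspa4l (0.0790), Zfp808 (0.0821) and Zscan2 (0.0869). These distances describe 10 libraries that share tissue makeup and depth, and have no test. Leaving out WT replicates 1 and 3, those rich in mitochondrial counts, 6 members passed the threshold: Gucy1b1 and Npr3 were higher, and Nos1, Nos3, Pde3a and Pde5a lower, where 27.2% of all genes were called.

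Other genes of the pathway were read from 5 lists of 57 genes, of which 41 could be tested. Of these, 2 were higher and 1 lower, 7.32% against 14.3% of all tested genes, and their median log2 difference was 0.06. Among 16 tested genes of nitric oxide synthesis and its control, Ass1 was the 1 called. It encodes argininosuccinate synthase, which helps to return citrulline to arginine, the substrate of the synthases. Ass1 was at 11.1, 12.0, 11.3, 12.9 and 13.7 CPM in KO libraries, against 7.70, 8.94, 9.88, 10.5 and 8.78 CPM in WT libraries, all KO values being higher. Its log2 difference was 0.41 (SE 0.10, adjusted p = 0.0171, edgeR), and the adjusted p was 0.0522 without KO replicate 5. Cav1, encoding caveolin 1, a scaffold that binds and inhibits the endothelial synthase, was the most abundant of that list. It averaged 742 ± 11.3 CPM in KO and 983 ± 217 CPM in WT (SD, n = 5 each; log2 difference −0.41, adjusted p = 0.0593, edgeR).

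Among 12 tested partners and targets of the kinase, Kcnmb1 rose and Hspb6 fell. Kcnmb1, the beta subunit of the calcium-activated potassium channel of smooth muscle, was at 339 to 351 CPM in KO, against 277 to 327 CPM in WT. The groups did not overlap, and the log2 difference was 0.19 (SE 0.05, adjusted p = 0.0370, edgeR). Hspb6, a small heat shock protein that cyclic nucleotide-dependent kinases phosphorylate, was at 161 to 166 CPM in KO, against 173 to 243 CPM in WT (log2 difference −0.30, SE 0.09, adjusted p = 0.0390). Both calls were lost without any 1 KO library (adjusted p 0.0762 to 0.0916 for Kcnmb1 and 0.0786 to 0.0910 for Hspb6). That of Kcnmb1 was lost without WT replicate 4 (0.0579) or 5 (0.0818), and that of Hspb6 without WT replicate 1 (0.0723) or 2 (0.0776). Atp2a2, the calcium pump of the sarcoplasmic reticulum, averaged 740.1 ± 2.41 CPM in KO and 744 ± 70.5 CPM in WT (SD, n = 5 each; log2 difference −0.01, adjusted p = 0.950).

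No gene passed among 3 tested ligand-related genes, 2 other cyclases, and 8 other phosphodiesterases and exporters. Their most abundant tested genes were Furin, a protease that cleaves precursors, Gucy1a2, another alpha subunit, and Abcc5, a cyclic nucleotide exporter. Furin averaged 25.3 CPM in KO and 30.1 CPM in WT (log2 difference −0.25, adjusted p = 0.3002, edgeR). Gucy1a2 was low, at 0.928 CPM in KO and 1.11 CPM in WT. Abcc5 averaged 95.5 CPM in KO and 104.5 CPM in WT (log2 difference −0.13, adjusted p = 0.418, edgeR). With KO as 1 sample, none of the 41 passed. In 5 of the 41 the groups did not overlap, 4 higher and 1 lower: Ass1, Prkg2, Kcnmb1 and Rhoa were higher in all KO libraries, and Hspb6 lower. Across all tested genes 7.38% lay above and 7.22% below in that sense.

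**Figure D5:**
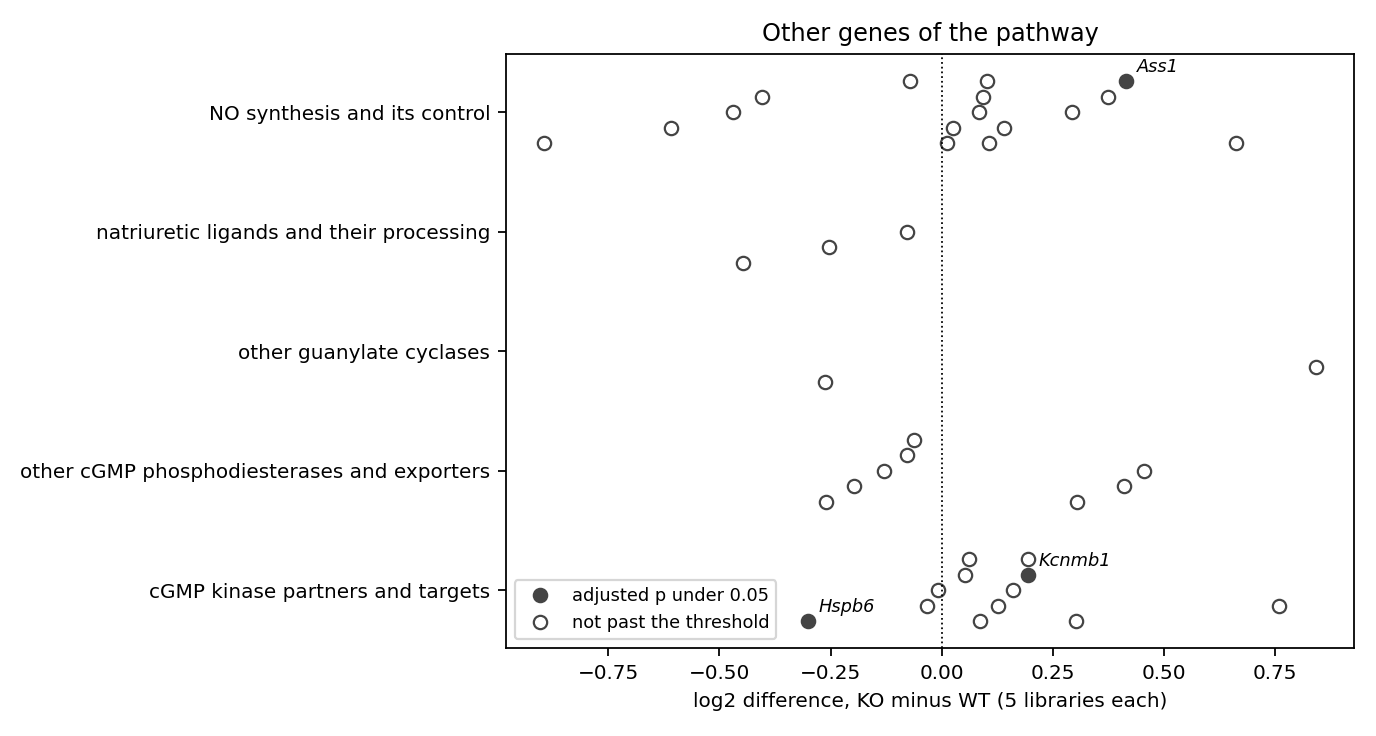
Log2 difference, KO over WT, of the 41 tested pathway genes that are not members, by list; each dot is a gene, and called genes are named. The filled dots of Ass1 (0.41) and Kcnmb1 (0.19) lie right of 0 and that of Hspb6 (−0.30) left of it.

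Markers of other cells in the aorta were read as lists. Smooth muscle markers had 0 higher and 1 lower of 8 tested (Tagln, which shares 67.9% of its exonic bases with other genes), and endothelial 0 of 10, adipocyte 0 of 7 and cardiomyocyte 0 of 6 in either direction. Higher in KO were 4 of 7 fibroblast, 5 of 8 neuron, 2 of 6 Schwann cell and 2 of 6 macrophage markers. These lists had none lower, and 5 of 5 red cell markers were lower. Across all tested genes, 6.84% were called higher and 7.43% lower. With KO as 1 sample, 0 markers of any list were called. The summed level of the red cell list was 19.2 to 21.3 CPM in KO, against 65.7 to 327 CPM in WT. Acta2 and Myh11, which define smooth muscle, were abundant in each library, with Myh11 at 9032 to 9124 CPM in KO and 7229 to 9701 CPM in WT. No marker was at 0 in all libraries, and the part of any of these lists in the members' values was not tested.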

How the data were processed

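Each of the 10 deposited files holds whole-number read counts per gene. Per the labels' protocols, RNA from frozen aorta was extracted with Trizol and made into TruSeq libraries. Bowtie 0.12.2 and 2 mouse builds, mm8 and mm9, appear in the submitters' processing notes, and the gene identifiers are of a later annotation. Overlapping genes may share reads: neither counter nor strand setting is given in the sources used here. Coordinates and exon lengths come from GENCODE M21 (GRCm38), which held 35519 of 35667 identifiers.

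Groups follow the titles. Counts were tested with edgeR 4.0.16 (R 4.3.3): TMM, filterByExpr (minimum count 10, minimum total 15), robust quasi-likelihood F test, no covariate, Benjamini-Hochberg over all tested genes. Standard errors are the size of the log2 difference over the root of F. The fits were also run on simulated counts with known differences. The outcome of that run is not given here, and no statement above rests on it. Ratios were compared by two-sided exact permutation over all splits. Alternatives were other size factors, no filter, a replicate block, left-out libraries, DESeq2 1.42.0 and limma-voom (limma 3.58.1). Named genes are all members, every called and the most abundant tested gene of each pathway list, the nearest genes of Nos3, Prkg1 and Npr3, and Ovgp1; Prkg2, Rhoa and single markers were named after their values were seen. Members and lists were chosen with earlier results of these data known. Promoters of 8 members were found in RefSeq; Nos3 and Pde3a had none in the table.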

Additional observations from a re-analysis of the deposited data

Results flagged for a closer look

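WT replicate 1 stood apart from the other WT libraries in Npr3, at 22.9 CPM against 12.8 to 14.7 CPM in the other four. The gap to the nearest library was 0.808 of the group's range, above the critical value of 0.71 for 5 samples. It was the 1 such case among 30 groups of values checked, and chance gives about 1 in 20.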

How the results depend on the processing

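The count of members called, 1 (0 higher, 1 lower), became 0 with KO as 1 sample and with a replicate block, 2 with no filter (1 higher), 3 by DESeq2 (1 higher, 2 lower) and 6 without WT replicates 1 and 3 (2 higher, 4 lower). By library totals and without WT replicates 4 and 5, a choice made after seeing the data, it was 1 higher and 0 lower. Leaving out 1 library gave 0 to 4, with 0 to 2 higher and 0 to 2 lower. In Gucy1b1, Npr3 and Pde3a, WT replicate 1 alone did not lie on the same side of the KO libraries as the other WT libraries. The same held for WT replicate 2 in Npr1 and WT replicate 4 in Prkg1. Leaving that library out removed the overlap between the groups, so the call gained there adds no support. Pathway calls, 3 (2 higher, 1 lower), became 0 with KO as 1 sample, 1 higher and 0 lower with the block, 5 with no filter (4 higher), 5 by DESeq2 (2 lower) and 17 without WT replicates 1 and 3 (13 higher, 4 lower). By library totals they were 4 higher and 0 lower, by upper quartile factors 0 lower, and without WT replicates 4 and 5 there were 2 lower. Leaving out 1 library gave 0 to 6, with 0 to 4 higher and 0 to 2 lower. The counts of calls also moved over all genes. The share called was 14.3% with the main settings, 5.52% with no filter and 14.1% by DESeq2. Without WT replicates 1 and 3 it was 27.2%, and without WT replicates 4 and 5 it was 19.5%. For other size factors, the block and single left-out libraries no such share was taken. The counts of calls in those fits therefore have no background and cannot be read as results about the members or the pathway. The ratio of Gucy1a1 to Gucy1b1 ranged from −0.45 to −0.25 without 1 library and was −0.57 without WT replicates 1 and 3; that of Npr3 to Npr1 plus Npr2 ranged from 0.23 to 0.44, and the block gave an exact p of 0.125 for each. Gucy1a1 turned to 0.00056 by upper quartile factors, 0.037 by library totals, 0.014 with no filter and 0.054 without WT replicate 2 (range without 1 library −0.067 to 0.054), Npr2 to 0.10 without WT replicates 1 and 3, and Nos3 to 0.13 without WT replicates 4 and 5. The cause was not tested. Of 240 values of single genes, 6 changed sign as given above, 186 kept direction and side of the threshold, 34 lost a call and 14 gained one. Same-numbered libraries did not deviate together (correlations −0.04 to 0.04), so the numbers were not taken as pairs, and with the block Pde5a had an adjusted p of 0.0554 (edgeR). Depth limits Nos1, which had 2 to 6 counts in KO libraries and 4 to 22 in WT libraries.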
